A study of Mus musculus with 2 samples.

Results

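The genes described here are 10 targets and feedback regulators of canonical Wnt signalling, namely *Lgr5*, *Ascl2*, *Axin2*, *Rnf43*, *Znrf3*, *Nkd1*, *Sp5*, *Tcf7*, *Sox9* and *Dkk2*. They were taken by name, though with earlier results of these data known, from 16665 genes listed in at least 1 of the 2 count tables, and all 10 are listed in both. Their transcripts were measured by droplet-based single-cell RNA-seq in enteroids, which are epithelial organoids grown in Matrigel from crypts of the ileum (mice of 4 months, C57Bl6/129sv). One library came from control enteroids and 1 from Taf4 KO enteroids, in which *Taf4*, which encodes part of the basal transcription factor TFIID, was to be deleted. The Taf4 KO enteroids carry *Taf4* lox/lox with VilCreERT2, a tamoxifen-inducible Cre recombinase driven by the villin promoter and so restricted to epithelium, and received 1 µM 4-hydroxytamoxifen (4-OHT) for 3 days. The controls have the label of wild-type enteroids given ethanol, whereas the methods of the study describe *Taf4* lox/lox enteroids without Cre that received 4-OHT, and this difference could not be settled. Live cells were sorted before capture in both.

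Wnt ligands keep intestinal crypt cells dividing. When a ligand binds Frizzled and Lrp receptors, the destruction complex that contains Axin proteins is blocked, β-catenin accumulates and enters the nucleus, and it joins Tcf/Lef factors on their target genes. Among those targets are the stem cell receptor *Lgr5*, which binds R-spondins, and the stem cell transcription factor *Ascl2*. Many other targets dampen the pathway again. *Axin2* rebuilds the destruction complex, *Rnf43* and *Znrf3* are ubiquitin ligases that remove Frizzled from the cell surface, *Nkd1* inhibits Dishevelled, and *Dkk2* encodes a secreted protein that binds Lrp co-receptors. *Sp5*, *Tcf7* and *Sox9* encode transcription factors, and *Sox9* is also known from Paneth, tuft and enteroendocrine cells.

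Promoter windows of RefSeq (GRCm38.p6, 250 bases before to 50 bases after a transcript start) were matched for 7 of the 10 genes in 9 windows. *Lgr5*, *Znrf3* and *Sox9* had no window in the table. The bases before the start are shown for 3 genes, namely *Sp5* because its window holds a Tcf/Lef motif, and *Dkk2* and *Ascl2* because these genes were the furthest below the control in the Taf4 KO library. All are given 5′ to 3′ on the strand of the gene. Capitals mark CTTTGAT, the Tcf/Lef motif, in *Sp5* and the core promoter motif TATAAA in *Dkk2*, and the *Ascl2* sequence holds neither.
Sp5, chr2:70474673-70474922, plus strand: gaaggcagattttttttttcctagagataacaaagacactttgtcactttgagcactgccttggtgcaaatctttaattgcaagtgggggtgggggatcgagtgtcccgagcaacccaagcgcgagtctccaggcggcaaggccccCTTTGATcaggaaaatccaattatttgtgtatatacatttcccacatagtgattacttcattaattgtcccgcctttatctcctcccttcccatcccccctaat
Dkk2, chr3:132085042-132085291, plus strand: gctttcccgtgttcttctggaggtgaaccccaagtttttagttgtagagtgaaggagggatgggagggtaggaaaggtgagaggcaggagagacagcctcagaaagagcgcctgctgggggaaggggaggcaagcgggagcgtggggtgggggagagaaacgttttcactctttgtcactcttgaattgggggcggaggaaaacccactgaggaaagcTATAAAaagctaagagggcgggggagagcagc
Ascl2, chr7:142969265-142969514, minus strand: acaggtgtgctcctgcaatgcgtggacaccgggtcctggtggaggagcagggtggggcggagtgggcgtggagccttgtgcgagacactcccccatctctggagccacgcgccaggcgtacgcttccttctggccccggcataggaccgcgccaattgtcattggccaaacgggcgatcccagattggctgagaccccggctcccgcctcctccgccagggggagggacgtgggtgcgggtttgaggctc

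On either strand, CTTTGAT was present in 3.73% of all 32851 windows and in 1 of the 9 windows of these genes, that of *Sp5*, where it begins 104 bases before the start. TATAAA, read by the TFIID complex as a core promoter element, was present in 13.6% of all windows and in those of *Dkk2* and *Tcf7*. It begins 32 bases before the start in *Dkk2*, on the strand of the gene. In *Tcf7* the match lies 8 bases before the start and on the opposite strand. The palindrome CAGCTG, an E-box bound by Ascl-type bHLH factors, was present in 16.3% of all windows and in those of *Nkd1* and *Tcf7*. The motifs do not overlap in the windows of these genes. In the printed *Ascl2* sequence 67.6% of the bases were G or C, against 55.6% for *Dkk2*, 46.0% for *Sp5* and a median of 52.4% over all windows. These matches describe letters only, and binding was not measured here.

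The control library held 39947009 unique molecular identifiers (UMIs, each 1 counted transcript molecule) in 2563 cells, and the Taf4 KO library 24990128 in 1811 cells. Control cells had a median depth of 16749 UMIs and Taf4 KO cells one of 2254, and cells under 2000 UMIs were 17.3% of the former and 49.1% of the latter. Only 2 cell barcodes were shared. *Taf4* itself (chromosome 2, 179912146 to 179976646) was counted 278 times among control cells and 236 times in the library labelled Taf4 KO (log2 ratio 0.44, 0.18 to 0.70), so that its 3′ tags do not check the label. Every level below is a gene's UMIs summed over cells per 10000 UMIs of all genes, and every log2 ratio is Taf4 KO over control. With 1 library per group there are no replicates and no test between the conditions, and each range in parentheses is a 95% interval that covers counting error alone. The median log2 ratio of genes with at least 200 UMIs was 0.16 over all cells (10002 genes) and 0.18 in stem-like cells (8159 genes). Ratios are best read relative to these medians.

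Over all cells, the stem cell regulators were lower in the library labelled Taf4 KO while 4 of the 5 negative feedback genes were near their control level. *Dkk2*, *Ascl2* and *Lgr5* were lower by at least 1.5-fold, none of the 10 genes was higher by 1.5-fold, and 7 lay between. Among the 11941 genes that reached 50 UMIs when both libraries were summed, 8.74% were lower and 19.8% higher by this measure. The median log2 ratio of the 10 genes was -0.19, against 0.17 for those 11941 genes. Stem-like cells, defined below, were 41.2% (39.3 to 43.2%) of control but 23.5% (21.5 to 25.5%) of Taf4 KO cells. Other clusterings or namings put between 1.82 and 23.6% of Taf4 KO cells in this class, against between 13.9 and 48.7% of control cells, and the Taf4 KO share was the lower one in all 9 of them. The part of this difference in the levels over all cells was not tested.

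*Lgr5* (chromosome 10, 115450314 to 115587780), the R-spondin receptor of crypt base stem cells, was counted 6375 times in control cells, which is 1.596 per 10000 (1.56 to 1.64), and 2421 times in Taf4 KO cells, which is 0.969 (0.931 to 1.01). The log2 ratio was -0.72 (-0.79 to -0.65), 1.65-fold lower. Of the 10002 genes with at least 200 UMIs, 551 had a ratio at or below this one. Without the deepest 5% of cells the log2 ratio was -0.54, short of 1.5-fold.

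*Ascl2* (chromosome 7, 142966822 to 142969264), the bHLH factor that maintains the stem cell programme, gave 1993 UMIs among control cells (0.499 per 10000) and 347 among Taf4 KO cells (0.139). It was 3.59-fold lower, with a log2 ratio of -1.85 (-2.01 to -1.68), and 68 of those 10002 genes had a ratio at or below this. When each cell had equal weight the log2 ratio was -1.03. The difference was larger than that of *Lgr5*. Counted against *Lgr5* in the same cells, *Ascl2* reached 31.3 per 100 *Lgr5* UMIs among control cells and 14.3 among Taf4 KO cells (log2 ratio -1.13, -1.29 to -0.96).

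*Dkk2* (chromosome 3, 132085266 to 132180304), the secreted antagonist, was nearly absent from the Taf4 KO library. Against 546 UMIs among control cells it had 5 among Taf4 KO cells, which is 68.3-fold lower per 10000 UMIs (log2 ratio -6.09, -7.72 to -4.86). Of the 10002 genes, 7 had a ratio at or below this one, *Dkk2* included. Over 5 alternatives the log2 ratio ranged from -8.08 to -6.06.

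The intracellular and membrane-bound feedback inhibitors differed little between the libraries. *Axin2* (chromosome 11, 108917828 to 108950783) had 2870 and 1730 UMIs, or 0.718 and 0.692 per 10000, with a log2 ratio of -0.05 (-0.14 to 0.03). *Rnf43* (chromosome 11, 87663087 to 87735539) had 1276 and 773 UMIs and a log2 ratio of -0.05 (-0.18 to 0.08). *Znrf3* (chromosome 11, 5276329 to 5444847), which shares its substrate with *Rnf43*, had 401 and 239 UMIs and a log2 ratio of -0.07 (-0.31 to 0.16). *Nkd1* (chromosome 8, 88521342 to 88594887), the Dishevelled inhibitor, was sparse, with 146 and 103 UMIs and a log2 ratio of 0.17 (-0.20 to 0.55). Relative to the median ratio of all genes, the log2 ratios were -0.21 (-0.30 to -0.12) for *Axin2*, -0.20 (-0.33 to -0.07) for *Rnf43*, -0.23 (-0.46 to 0.01) for *Znrf3* and 0.02 (-0.36 to 0.39) for *Nkd1*. *Axin2* and *Rnf43* were thus below the median gene by more than the counting error, and short of 1.5-fold.

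Among the transcription factors, *Sox9* (chromosome 11, 112782210 to 112787757) gave 4264 UMIs among control cells (1.07 per 10000) and 2805 among Taf4 KO cells (1.12), with a log2 ratio of 0.07 that turned to -0.08 under median ratio scaling. *Sp5* (chromosome 2, 70474923 to 70477726), a zinc finger factor that represses other Wnt targets, had 632 and 312 UMIs and a log2 ratio of -0.34 (-0.54 to -0.14). *Tcf7* (chromosome 11, 52246527 to 52283383), a partner of β-catenin, had 191 and 96 UMIs and a log2 ratio of -0.32 (-0.68 to 0.05), which was 0.39 when each cell had equal weight. *Ascl2* was thus the one factor of the 4 past 1.5-fold. The plot of log2 ratios sets these values beside those in stem-like cells.

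**Figure D1:**
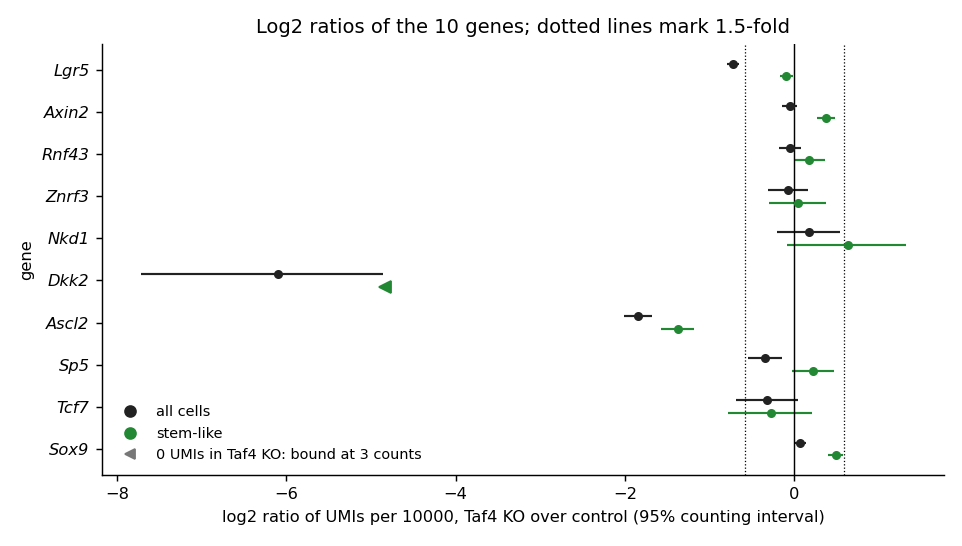
Log2 ratio of UMIs per 10000 (Taf4 KO over control) for each of the 10 genes over all cells (black) and in stem-like cells (green), with 95% counting intervals and dotted lines at 1.5-fold. *Dkk2* (log2 ratio -6.09) and *Ascl2* (-1.85) lie far to the left of the other genes, *Lgr5* is past the line over all cells (-0.72) and not in stem-like cells (-0.09), and the triangle is the bound for a count of 0.

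Levels by cell class show where these genes are expressed. Each library was clustered on its own without the 10 genes and without the other Wnt genes, and a cluster was named from at least 3 of the listed markers of a class. The stem list (12 genes with *Olfm4*, *Slc12a2* and *Smoc2* among them) contains none of the 10 genes. In the control, 5 of 14 clusters with 1057 cells were stem-like, and in the Taf4 KO library 3 of 15 clusters with 425 cells. Genes of DNA replication and division led 3 stem-like control clusters (310, 239 and 188 cells) and 2 Taf4 KO ones (215 and 33 cells). Other genes led those of 226 and 94 control cells, and the Taf4 KO cluster of 177 cells had *Ccnd1*, *Myc* and *Lgr5* among its 10 leading genes. All 12 stem markers were detected in stem-like cells of both libraries, with a summed level of 22.7 per 10000 in the control and 20.8 in the Taf4 KO library (*Olfm4* alone 8.52 and 7.23), against 1.37 and 0.974 in enterocyte-like cells. Markers of non-epithelial cells summed to 0.00501 and 0.00720 per 10000 over all cells, with 3 and 4 of 10 detected, and the low-quality list summed to 788 and 902 in stem-like cells. *Mki67*, a marker of dividing cells, was at 1.67 per 10000 in control and 0.665 in Taf4 KO stem-like cells, and its part in the levels below was not tested. Paneth and goblet markers, with all 15 detected in both, summed to 10.6 per 10000 in control and 28.3 in Taf4 KO stem-like cells. Over the single stem-like clusters this sum was 4.68 to 15.2 in the control, and 97.0, 12.2 and 5.13 in the Taf4 KO clusters of 215, 177 and 33 cells.

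In the control, stem-like cells held 55.3% of all UMIs and a larger share of the UMIs of 8 of the 10 genes. These were *Ascl2* (80.0%), *Tcf7* (73.8%), *Lgr5* (73.3%), *Axin2* (70.5%), *Sox9* (66.7%), *Sp5* (65.7%), *Znrf3* (63.3%) and *Rnf43* (62.1%). The exceptions were *Dkk2* (38.1%) and *Nkd1* (32.2%). Set against enterocyte-like cells of the same library, the stem-like level was 36.2-fold higher for *Lgr5*, 26.7-fold for *Ascl2*, 17.3-fold for *Sox9*, 6.89-fold for *Axin2* and 1.94-fold for *Rnf43*. By this ratio to enterocyte-like cells alone, *Rnf43* was the least restricted of the genes with a higher level in stem-like cells. By share of UMIs it was *Nkd1* (32.2%, against 62.1% for *Rnf43*). The Taf4 KO library kept this arrangement for *Axin2* (10.0-fold) and *Rnf43* (1.91-fold), and *Lgr5* had 4 UMIs in its enterocyte-like cells, against 1805 in the stem-like ones.

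**Figure D2:**
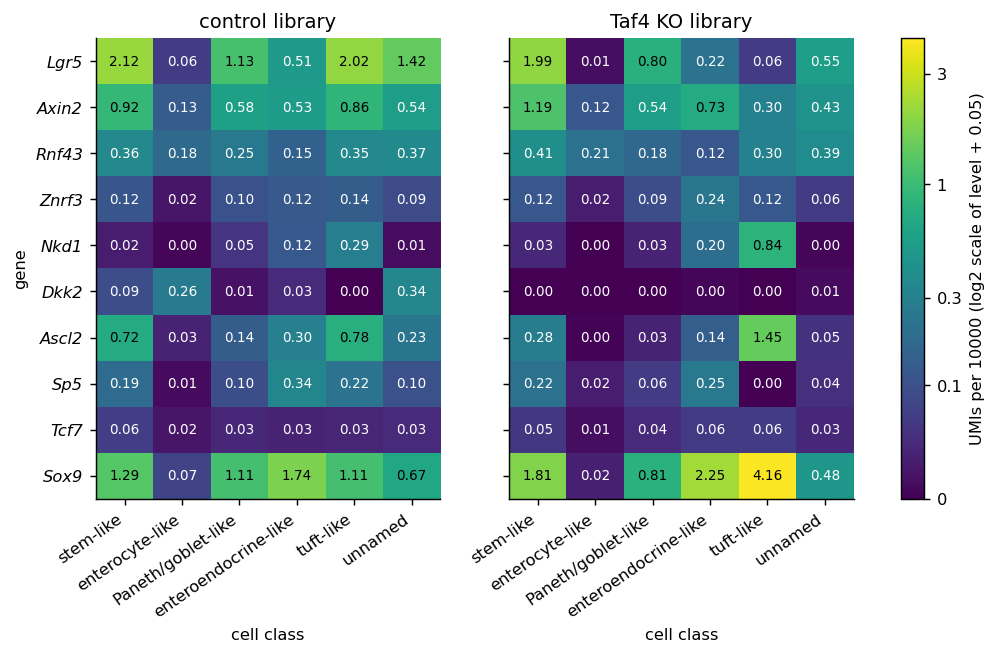
UMIs per 10000 of each gene (rows) in each cell class (columns) of the control library and of the Taf4 KO library, printed to 2 decimals and coloured on a log2 scale. Both libraries have their highest *Lgr5* levels in stem-like cells (2.12 and 1.99) and low levels of most genes in enterocyte-like cells, the *Dkk2* row is at 0.01 or below throughout the Taf4 KO library, and the Taf4 KO tuft-like column rests on 14 cells.

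Within stem-like cells *Lgr5* was close to its control level per 10000 UMIs, *Ascl2* and *Dkk2* were lower, and *Axin2* and *Sox9* were higher. *Lgr5* was at 2.12 per 10000 in control and 1.99 in Taf4 KO stem-like cells, a log2 ratio of -0.09 (-0.17 to -0.01). Relative to the median ratio of all genes, *Lgr5* was at -0.28 (-0.35 to -0.20). It was thus below the median gene by more than the counting error, and short of 1.5-fold. *Ascl2* was at 0.722 (0.687 to 0.758) and 0.278 (0.245 to 0.315), which is 2.59-fold lower (log2 ratio -1.38, -1.57 to -1.18). *Dkk2* had 208 UMIs in control stem-like cells and 0 in those of the Taf4 KO library, at least 28.5-fold lower when the 0 is set to a floor of 3 counts over the class. A count of 0 allows up to 0.00330 per 10000 at this depth. Per 100 *Lgr5* UMIs, the stem-like cells held 34.1 and 14.0 *Ascl2* UMIs.

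*Axin2* was at 0.916 per 10000 in control and 1.19 in Taf4 KO stem-like cells, a log2 ratio of 0.38 (0.27 to 0.48). *Sox9* was at 1.29 and 1.81, a log2 ratio of 0.49 (0.40 to 0.58). Neither reached 1.5-fold, and both remained above 0 after median ratio scaling, at 0.19 and 0.31. Without the Taf4 KO cluster of 215 cells, in which Paneth and goblet markers were high, they were 0.41 and 0.54. *Rnf43* (0.18, -0.00 to 0.36), *Znrf3* (0.05, -0.29 to 0.38), *Sp5* (0.23, -0.02 to 0.47) and *Tcf7* (-0.27, -0.78 to 0.21) had log2 ratios whose intervals hold 0. *Nkd1* was 1.55-fold higher, from 47 and 30 UMIs, with an interval of the log2 ratio from -0.08 to 1.32, and it was not past 1.5-fold without the Taf4 KO cluster of 215 cells or without that of 33 cells.

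By count, 2 of the 10 genes were lower and 1 higher by 1.5-fold in stem-like cells, or 2 and 0 after median ratio scaling. Among all 10558 genes with at least 50 UMIs there, 8.26% were lower and 16.9% higher. The median log2 ratio of the 10 genes was 0.11 and that of all these genes 0.19. *Ascl2* had a ratio that 106 of 8159 genes with at least 200 UMIs in stem-like cells reached or went below, and *Sox9* had one that 6634 of them did not exceed.

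These stem-like values depend on the clustering and on which cells are named. Over 16 alternatives the log2 ratio of *Ascl2* ranged from -2.07 to -0.25 and was negative in all 16, and that of *Lgr5* ranged from -0.67 to 0.31 with 11 of 16 negative. The *Ascl2* value of -0.25, short of 1.5-fold, came from clustering both libraries together, which left 44 Taf4 KO stem-like cells, and a marker level of 2 times the mean left 33 cells with -0.53, also short of 1.5-fold. *Axin2* (0.19 to 0.78) and *Sox9* (0.27 to 0.78) were above 0 in all 16.

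The 3 Taf4 KO stem-like clusters differed among themselves. *Ascl2* was at 0.225 per 10000 in the cluster of 215 cells, 0.230 in that of 177 cells and 0.607 in that of 33 cells, against 0.440 to 0.907 over the 5 control clusters. The cluster of 33 cells, the one with the most stem markers (9 of 12), thus lay inside the control range, and the other two below it. The same cluster had the highest Taf4 KO levels of *Lgr5* (2.61, control clusters 1.91 to 2.42) and *Axin2* (1.55, control clusters 0.835 to 1.03). All 3 Taf4 KO clusters were above every control cluster for *Axin2* (1.08, 1.15 and 1.55), while *Sox9* (1.55, 1.88 and 1.89) lay within the control range of 1.06 to 2.02. The interval of the lowest of these *Axin2* levels (0.937 to 1.25) reaches into the control range. Cluster levels are not scaled to the median gene, whose log2 ratio was 0.18 in stem-like cells. Scaled by this ratio of the whole class, the *Axin2* levels of 1.08 and 1.15 would fall inside the control range, and that of 1.55 would stay above it. *Dkk2* had no UMI in any of the 3, against 0.0340 to 0.171 per 10000 in the control clusters.

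**Figure D3:**
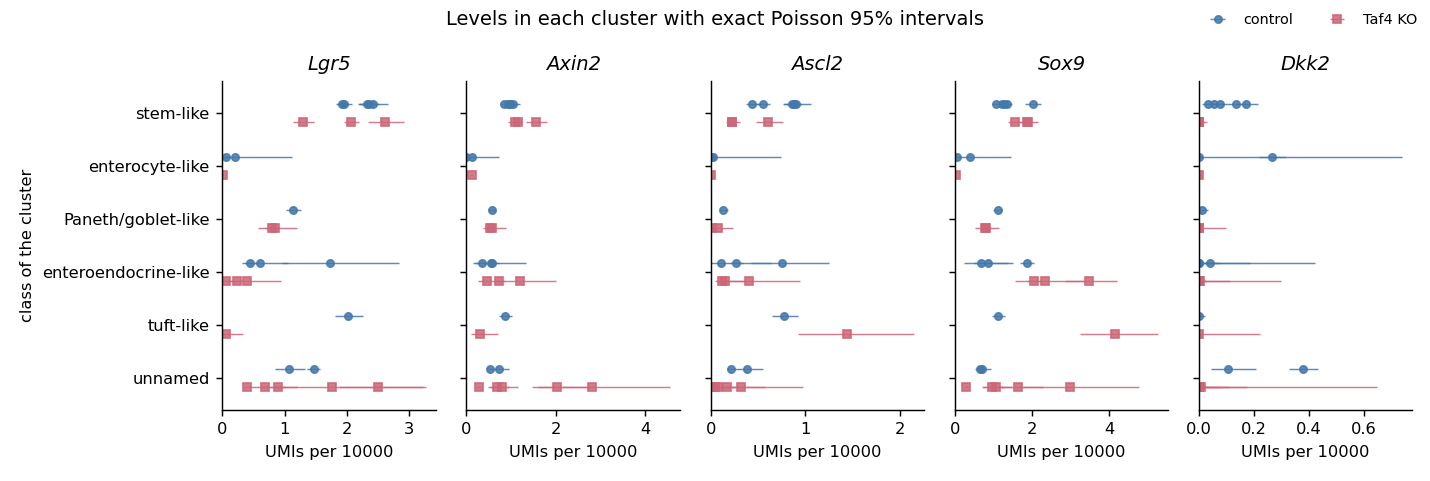
UMIs per 10000 of 5 genes in each cluster of the control library (circles) and of the Taf4 KO library (squares), by the class of the cluster, with exact Poisson 95% intervals. Levels are not scaled to the median gene. For *Ascl2*, 2 Taf4 KO stem-like clusters (0.225 and 0.230) lie left of all 5 control ones (0.440 to 0.907) and 1 does not (0.607). For *Axin2* all 3 lie to the right (1.08 to 1.55) without such scaling, and *Dkk2* is at or near 0 in every Taf4 KO cluster.

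A ratio to *Lgr5* does not depend on the total of all genes, but it does depend on *Lgr5*. In stem-like cells *Lgr5* was itself at -0.28 (-0.35 to -0.20) relative to the median gene, so that ratios to it come out higher than ratios to that gene. Per 100 *Lgr5* UMIs, *Ascl2* was at 11.1, 17.4 and 23.2 UMIs in the Taf4 KO stem-like clusters of 177, 215 and 33 cells, and at 18.7 to 46.0 in the control ones. *Axin2* was at 55.5, 83.8 and 59.4, above the 40.8 to 47.0 of the control clusters. *Sox9* was at 90.6, 120.0 and 72.3, and the control clusters spanned 54.0 to 83.6. Measured in this way over all stem-like cells, *Ascl2* had a log2 ratio of -1.28 (-1.48 to -1.09), *Axin2* 0.47 (0.36 to 0.58), *Rnf43* 0.27 (0.09 to 0.45) and *Sox9* 0.59 (0.50 to 0.67). Relative to the median gene instead, *Ascl2* was at -1.56, *Axin2* at 0.19, *Rnf43* at -0.00 (-0.18 to 0.18) and *Sox9* at 0.31. Relative to *Lgr5*, then, the one gene among these 4 that was lower was *Ascl2*.

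**Figure D4:**
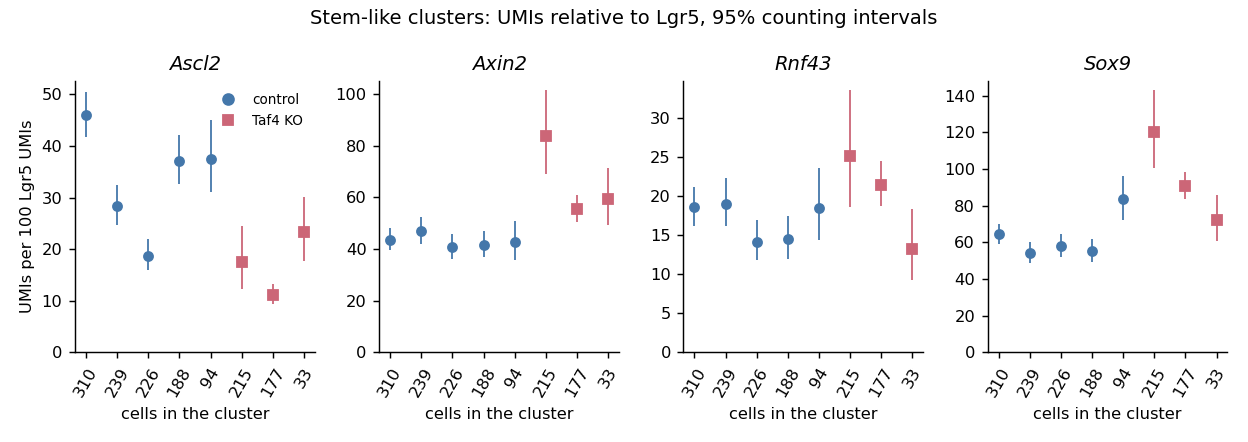
UMIs of *Ascl2*, *Axin2*, *Rnf43* and *Sox9* per 100 *Lgr5* UMIs in each stem-like cluster (circles, control; squares, Taf4 KO), labelled by its number of cells, with 95% counting intervals and axes from 0. *Ascl2* is lowest in the Taf4 KO cluster of 177 cells (11.1) and *Axin2* is higher in each Taf4 KO cluster (55.5 to 83.8) than in any control cluster (40.8 to 47.0).

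Single cells were also compared without clusters, and the intervals here count cells of 1 library and cover counting error only. Cells with at least 5000 UMIs were thinned to 5000 UMIs each, which kept 1988 control and 758 Taf4 KO cells, and 922 and 214 of them had an *Lgr5* UMI. Of the *Lgr5*-positive cells, 24.4% (21.7 to 27.3%) of control but 6.54% (3.62 to 10.7%) of Taf4 KO cells also had an *Ascl2* UMI. *Axin2* was found in 33.0% (29.9 to 36.1%) and 47.7% (40.8 to 54.6%) of them, *Rnf43* in 14.2% and 22.0%, and *Sox9* in 40.9% and 48.1%. Of the 1066 control and 544 Taf4 KO cells without an *Lgr5* UMI, 14.7% and 3.86% had an *Ascl2* UMI, so that *Ascl2* was lower in the Taf4 KO library in both sets of cells. *Axin2* (23.8% and 21.0%) and *Sox9* (29.0% and 28.5%) were at like shares there, and *Rnf43* was at 12.7% and 8.46%. In enterocyte-like cells at this depth *Ascl2* was found in 1.01% of 198 control and 0 of 110 Taf4 KO cells (up to 2.73%), and *Axin2* in 4.04% and 6.36%. A *Dkk2* UMI was found in 0 of the 214 Taf4 KO cells, which allows up to 1.402%, against 6.29% of the 922 control cells.

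Shares over the stem-like class were also taken at a common depth of 2000 UMIs per cell, which left out 9 control and 100 Taf4 KO cells. An *Lgr5* UMI was found in 31.2% of 1048 control and 28.9% of 325 Taf4 KO stem-like cells, an *Ascl2* UMI in 11.8% and 4.92%, an *Axin2* UMI in 16.0% and 20.3%, and a *Sox9* UMI in 20.9% and 26.8%. Without thinning, in the same cells, these shares were 94.5% and 80.6% for *Lgr5*, 58.5% and 38.5% for *Ascl2*, 76.6% and 77.8% for *Axin2*, and 77.6% and 76.6% for *Sox9*, so that no order is read from the share for *Sox9*. In enterocyte-like cells, which should lack the stem genes, *Lgr5* was found in 0.935% of 214 control cells and in 0 of 128 Taf4 KO cells, which allows a share of up to 2.34%. Median depths before thinning were 21119 and 25678 UMIs in stem-like cells and 20847.5 and 33163.5 in enterocyte-like cells. Depth was uneven within the Taf4 KO stem-like class. Its largest cluster (215 cells) was shallow, with 2386 UMIs in the median cell, against 34923 (177 cells) and 37076 (33 cells). Control stem-like clusters spanned 17854.5 to 24676.5 UMIs by the same measure. At 5000 UMIs the median stem-like cell had a UMI of 2 of the 10 genes in either library.

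*Dkk2* had a pattern of its own in the control. Its level was higher in enterocyte-like cells (0.261 per 10000, 116 UMIs) than in stem-like cells (0.0942), the reverse of the 9 other genes, which were all higher in stem-like cells. It was highest in an unnamed cluster of 306 cells (0.378, 201 UMIs) whose leading genes include *Nupr1*, *Areg* and *Dkk2* itself. That cluster also had 1.47 per 10000 of *Lgr5* and 0.211 of *Ascl2*. It met 1 stem marker and no enterocyte marker. The 5 *Dkk2* UMIs of the Taf4 KO library were 4 in an unnamed cluster of 145 cells and 1 in an enteroendocrine-like cluster, while the 160 enterocyte-like cells had 0 of 4550501 UMIs.

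*Sox9* and *Nkd1* were high in clusters with secretory markers. In the control *Sox9* was at 1.74 per 10000 in enteroendocrine-like, 1.29 in stem-like, 1.11 in tuft-like and 1.11 in Paneth/goblet-like cells, and at 0.0743 in enterocyte-like cells. In the Taf4 KO library it was at 2.25 in enteroendocrine-like cells, a log2 ratio of 0.37 (0.19 to 0.55). *Nkd1* was at 0.286 per 10000 in control tuft-like and 0.120 in enteroendocrine-like cells, against 0.0213 in stem-like cells. The control tuft-like cluster of 87 cells had 5 tuft markers, yet it also met 3 stem markers. Its 10 leading genes include *Rgs13* and *Lrmp*, and also *Dll1*, *Sox4* and *Nkd1* itself. Paneth and goblet markers summed to 51.7 per 10000 there, against 10.6 in control stem-like and 644 in control Paneth/goblet-like cells. The *Nkd1* level is thus that of a mixed cluster. The tuft markers of this cluster summed to 1.23 per 10000, against 40.6 in the Taf4 KO tuft-like cells. Its stem markers summed to 18.8, close to the 22.7 of stem-like cells, with *Lgr5* at 2.02. In enteroendocrine-like cells the feedback genes *Nkd1* (31 and 49 UMIs, log2 ratio 0.73, 0.05 to 1.43), *Znrf3* (32 and 59, 0.95, 0.31 to 1.62) and *Axin2* (138 and 180, 0.45, 0.12 to 0.78) had ratios above 0, *Rnf43* (39 and 29, -0.36, -1.11 to 0.37) and *Dkk2* (9 and 1, -3.10, -8.56 to -0.25) had ratios below it, and *Lgr5* (131 and 55) and *Ascl2* (78 and 35) were lower there, at -1.18 and -1.09. *Sp5* (87 and 62) was at -0.42 (-0.92 to 0.07). No median ratio of all genes was taken in this class. The lower bounds of *Nkd1* (0.05) and *Axin2* (0.12) are under the median of 0.16 over all cells. The enteroendocrine-like class is 1 large cluster of 206 cells and 2 small ones in the control, and clusters of 99, 69 and 29 cells in the Taf4 KO library. Tuft-like cells were not compared between the libraries, since there were 87 in the control and 14 in the Taf4 KO library.

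A further group of Taf4 KO cells had high levels of *Lgr5* and of the feedback genes *Axin2* and *Rnf43*. An unnamed cluster of 103 shallow cells (median depth 993 UMIs), which met 4 stem markers but had low-quality genes among its leading ones, was at 2.49 per 10000 for *Lgr5* (53 UMIs), 2.02 for *Axin2* (43 UMIs) and 1.22 for *Rnf43* (26 UMIs), and held 1 *Ascl2* UMI. Of the other feedback genes, this cluster held 5 *Znrf3* UMIs and 0 of *Nkd1* and *Dkk2*. Its depth is far under that of the deep stem-like clusters. It is also below the 2386 UMIs of the shallow Taf4 KO stem-like cluster (215 cells).

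The rest of the pathway was followed with a list of 85 other Wnt genes, of which 68 are in the tables and 51 had at least 50 UMIs. Over all cells 4 were lower and 8 higher by 1.5-fold (5 and 6 after median ratio scaling), with a median log2 ratio of 0.23 against 0.17 for all genes, and the shares are to be read against the same 8.74% and 19.8% of all genes. Of the receptors, *Fzd7* (299 and 105 UMIs, log2 ratio -0.83, -1.17 to -0.51), *Fzd2* (215 and 85, -0.66, -1.04 to -0.29) and *Fzd3* (64 and 23, -0.80, -1.55 to -0.09) were lower, *Fzd9* (30 and 40, 1.09) was higher, and 8 lay between. None of the 13 cytoplasmic transducers tested, which include the genes of the destruction complex, passed 1.5-fold over all cells. The ligand *Wnt4* (37 and 13 UMIs) was lower at -0.83, with an interval from -1.87 to 0.11. In stem-like cells 43 of these genes had at least 50 UMIs, of which 3 were lower and 7 higher by 1.5-fold (3 and 3 after median ratio scaling), against 8.26% and 16.9% of all genes there. The lower ones were *Wnt3* (-1.01, -1.42 to -0.62), *Fzd7* (-0.76, -1.26 to -0.28) and *Fzd1* (-0.60, -1.50 to 0.21), while *Fzd2* was at -0.15 there. The *Fzd1* value rests on 59 and 16 UMIs and its interval holds 0. Over all cells *Wnt3* went the other way, at 0.27 (0.14 to 0.40). The 7 higher ones include 3 transducers, namely *Ctnnb1*, which encodes β-catenin (0.68, 0.61 to 0.76), *Btrc* (0.70) and *Tnks2* (0.64), and the co-receptor *Lrp5* (0.69), all 4 short of 1.5-fold after median ratio scaling. Genes named for stem-like cells here were chosen after their values were seen.

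Of 7 other targets of the pathway, 4 were higher by 1.5-fold over all cells and 3 lay between. *Ccnd1*, which encodes cyclin D1, was counted 1845 times among control and 3385 times among Taf4 KO cells, with a log2 ratio of 1.55 (1.47 to 1.63), and in stem-like cells the ratio was 2.20. *Cd44*, an adhesion receptor, had log2 ratios of 1.18 (1.01 to 1.35) from 477 and 675 UMIs over all cells, and of 1.86 in stem-like cells. *Bambi*, a decoy receptor of the TGFβ family, was at 0.87 (0.69 to 1.05) and the Eph receptor *Ephb3* at 0.60 (0.16 to 1.03), and in stem-like cells these were at 0.24 (-0.37 to 0.83) and 0.49 (-0.27 to 1.22). *Myc* (-0.20), *Ephb2* (0.20) and *Tnfrsf19* (0.58) lay between over all cells, and *Tnfrsf19* was at 1.28 in stem-like cells. The R-spondin *Rspo4* (28 and 67 UMIs, 1.94), the co-repressor *Tle2* (34 and 44, 1.05) and the secreted inhibitor *Wif1* (27 and 27, 0.68, -0.15 to 1.502) were the remaining genes past 1.5-fold.

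**Figure D5:**
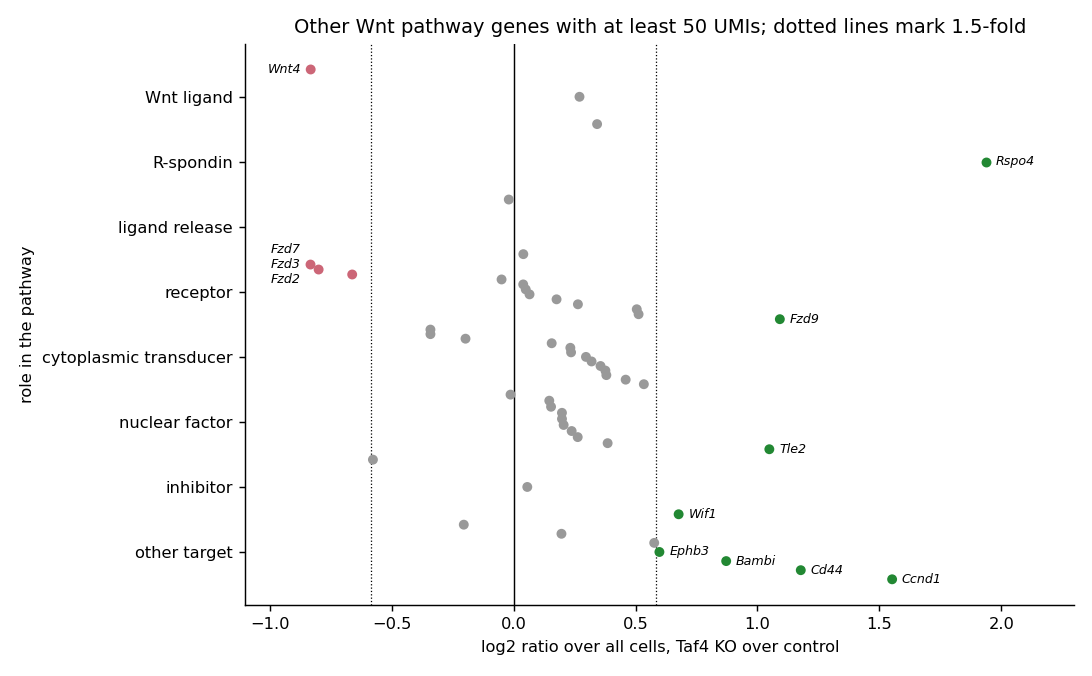
Log2 ratio over all cells (Taf4 KO over control) of the 51 other Wnt pathway genes with at least 50 UMIs, by role, with dotted lines at 1.5-fold. The 4 genes to the left of the lines are *Wnt4*, *Fzd7*, *Fzd3* and *Fzd2*, the 8 to the right are led by *Rspo4* (1.94) and *Ccnd1* (1.55), and no cytoplasmic transducer is past a line.

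The genes whose levels over the 29 clusters of both libraries were most like *Lgr5*, among 5720 genes with at least 1000 UMIs, were *Slc12a2* (Pearson r 0.932), *Rps15* (0.895), *Ybx3* (0.861), *Gnl3* (0.845) and *Npm3* (0.838). *Slc12a2* is a listed stem marker that served to name clusters. For *Axin2* they were *Wdr43* (0.932), *Nop14* (0.928), *Dph5* (0.920), *Ccdc86* (0.916) and *Lrig1* (0.916). Over the same clusters *Lgr5* had an r of 0.71 with *Axin2* and 0.40 with *Ascl2*, and over the 14 control clusters 0.84 and 0.74. The clusters share libraries and differ in depth and cell number, so that these r values are descriptions.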

How the data were processed

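Single-cell RNA-seq was analysed in 1 control and 1 Taf4 KO library. The deposited values are raw UMI counts per gene and cell. The authors made them with bcl2fastq 2.17.1.14 and Cell Ranger 3.1 on mm10 (versions as in the submitters' processing notes), which removed unexpressed genes, and used Seurat 3.1.4. Every cell met the filter of the study (200 to 6000 genes, under 15% mitochondrial UMIs). The cell with the most genes had 4999 in the control and 5997 in the Taf4 KO library. Whether the control had a lower upper cut, which would leave out its deepest cells, was not tested. The depth was 39947009 UMIs for the control and 24990128 for the other library.

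UMIs were summed over cells per 10000 with exact Poisson intervals. Log2 ratios have exact conditional binomial and shares Clopper-Pearson intervals, all at 95%, and these cover counting error only. A count of 0 was set to a floor of 3 counts. A gene was counted as lower or higher past 1.5-fold with at least 50 UMIs. Each library was clustered with Seurat 5.3.0 in R 4.3.3 (LogNormalize, 2000 variable genes without the Wnt genes, UMIs and mitochondrial percent regressed, 20 components, resolution 0.9). A cluster was named from at least 3 markers with 10 UMIs or more at 1.5 times the mean level of both libraries, and stayed unnamed where another class had more markers among its 10 leading genes, or where it had no marker of its own class among them and either a low-quality gene led or its median depth was under 0.333 of that of its library. No doublet caller was run, and the deepest 5% of cells were left out as an alternative. Counts and intervals came from Python 3.11.15 with scipy 1.17.1, numpy 2.4.6 and pandas 2.3.3. The intervals were tested on simulated Poisson and binomial counts, which is the model they assume. The simulation had no variation between cells or libraries, so it does not show how well the intervals cover these data. Coordinates and promoter windows are those of RefSeq on GRCm38.p6.

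The 10 genes and all lists were chosen with earlier results of these data known. Named genes are the 10, *Taf4*, *Olfm4*, *Mki67*, the listed Wnt genes past 1.5-fold over all cells with at least 50 UMIs, and the 5 genes most like *Lgr5* and *Axin2* over clusters (Pearson r of log2(level + 0.05)). Also named were the remaining other targets (*Myc*, *Ephb2* and *Tnfrsf19*). Listed Wnt genes past 1.5-fold in stem-like cells were added after their values were seen. Leading genes of clusters, the counts per 100 *Lgr5* UMIs, the shares among *Lgr5*-positive cells, the unthinned shares in equal cells, the Wnt list in stem-like cells after scaling and the omission of single Taf4 KO stem-like clusters were added after values were seen. Alternatives varied the clustering, the naming, the scaling, the cells and the fold.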

Additional observations from a re-analysis of the deposited data

Results flagged for a closer look

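*Sox9* was singled out because its difference between the libraries had opposite signs in different cell classes. Its log2 ratio was -1.62 (-2.75 to -0.60) in enterocyte-like cells, from 33 control and 11 Taf4 KO UMIs, and -0.44 (-0.68 to -0.21) in Paneth/goblet-like cells, from 349 and 250 UMIs. In stem-like cells it was 0.49 (0.40 to 0.58). *Sox9* was not alone in this. *Axin2* was at 0.38 (0.27 to 0.48) in stem-like cells and at -0.33 (-0.57 to -0.08) in the cells of unnamed clusters. With 1 library per group the difference between the classes was not tested. The Paneth/goblet-like class held 189 control cells in 1 cluster (median depth 16388 UMIs), and 86 and 102 Taf4 KO cells in 2 clusters (median depths 32360 and 961 UMIs).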

How the results depend on the processing

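Of 313 values computed under alternative settings, 199 stayed within the counting interval or within 1.5 times the count, 105 moved further, and 9 took the other sign although the interval of the reported value did not hold 0. Over all 245 signed values, 38 had the other sign, of which 20 were log2 ratios in stem-like cells, 8 log2 ratios over all cells and 10 differences of shares. No paired analysis was possible because each group has 1 library. Depth limits the sparse genes *Nkd1*, *Tcf7* and *Znrf3*, and the clustering and naming of cells limit every value in stem-like cells. The cause of each shift was not tested.

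Over all cells the median log2 ratio of the 10 genes was 0.053 when each cell had equal weight. The *Sox9* ratio was -0.082 without mitochondrial, ribosomal protein and nuclear genes in the total, and -0.083 with median ratio scaling. Of the other Wnt genes, 0 were lower and 5 higher by 2-fold, and 2 and 3 by 1.5-fold with at least 200 UMIs. In stem-like cells 3 were higher after median ratio scaling, against 7.

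In stem-like cells the *Lgr5* log2 ratio was 0.033 with 10 components, 0.28 with both libraries clustered together, 0.31 with markers at 2 times the mean level, 0.21 with a score gate per cell (355 control and 94 Taf4 KO cells, with 325 and 61 cells near its cut), and 0.028 without the Taf4 KO cluster of 215 cells. The median of the 10 genes was -0.23 at resolution 0.5, 0.40 with both libraries together, 0.40 at 2 times the mean level and 0.41 with the gate. The number of lower genes was 4 at resolution 0.5 and 1 with both libraries together or at 2 times the mean level. The number of higher genes was 0 with 30 components, with either other scaling, at 2-fold, and without the Taf4 KO cluster of 215 or of 33 cells. It was 2 with 10 components, no regression, 2 times the mean level or equal weight of cells, 3 with the gate and 4 with both libraries together. The difference in the share of stem-like cells with a *Sox9* UMI was -14.9 percentage points without thinning and -0.961 without thinning in cells of at least 2000 UMIs, against 5.87 at 2000 UMIs.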
